A study of Arabidopsis thaliana with 24 samples.

Results

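The 24 genes described here had transcript levels near 0 in wild-type roots and were detected in every clf-28 root library, as judged by 1 table line for each gene. TPS13 and ABCG22 each had a second line that was above the WT limit, given below. They were chosen from a deposited table of FPKM, in which fragments are normalised for the length of the transcript and the depth of the library. The rule took every table line that named a single gene, lay at 3 FPKM or more in all 3 clf-28 root libraries and under 0.5 FPKM in all 3 WT root libraries, and had the status OK in these 6 libraries. Of 32102 lines that named 1 gene, 12327 lay under 0.5 FPKM in all 3 WT root libraries with the status OK, and 24 of those, or 0.195%, reached 3 FPKM in every clf-28 root library. With the genotypes exchanged, the rule found 0 lines. The root values are therefore what chose these genes, and they are given as a description with no test.

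The study profiled transcripts of Arabidopsis thaliana by strand-specific single-end RNA-seq to find those that CLF regulates. The mutant plants carried the clf-28 allele of CURLY LEAF (CLF), and the wild-type (WT) plants were Col-0. For both genotypes, plants 2 weeks old on MS plates gave the roots and shoots, and plants 5 weeks old in soil gave the inflorescences and siliques, all in long days at 22 °C with no treatment. Each of the 8 groups of genotype and tissue held 3 biological replicates, which makes 24 libraries. The samples were whole organs, in which more cells of a type and more RNA per cell cannot be told apart, and siliques hold both fruit wall and seeds.

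CLF is the histone methyltransferase of a Polycomb repressive complex, which places the H3K27me3 mark on chromatin of genes that are to stay off in a given organ or stage. The complex is best known in plants for keeping floral, seed and meristem programmes off in leaves and roots. Seed storage proteins, which are normally made in maturing embryos and endosperm, belong to the programmes under Polycomb control in seedlings.

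The library labelled clf-28 shoots replicate 3 correlated at a mean Spearman rho of 0.783 across genes with the other clf-28 shoots and at 0.915 with clf-28 siliques. For the library labelled clf-28 siliques replicate 3, the mean rho was 0.791 against the other clf-28 siliques and 0.919 against clf-28 shoots. Both are left out of the tests below unless said otherwise, and no root library went against its label. The 11 root cell type markers, such as CASP1, SCR and WOX5, summed to 555 to 613 FPKM in clf-28 roots and to 480 to 534 in WT roots. CLF itself was at 7.76, 7.42 and 8.09 FPKM in clf-28 roots, against 8.09, 13.8 and 14.2 FPKM in WT roots. An FPKM over the whole gene does not show the lesion, and thus cannot serve as a test of genotype. Read depth per library is unknown, since the table holds no counts.

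Of the 24 genes, 21 were protein-coding, 1 was a non-coding RNA and 2 were annotated as pseudogenes (1 of them transcribed). The clf-28 root means ran from 3.27 to 566 FPKM with a median of 8.60 FPKM. In WT roots, 23 of the 72 values were listed at 0 and the highest was 0.473 FPKM. The genes fell into seed proteins and other transcripts abundant in siliques, enzymes, regulators of transcription and of protein turnover, a receptor kinase, a leucine-rich repeat protein and a transporter, and transcripts of unknown function.

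**Figure D1:**
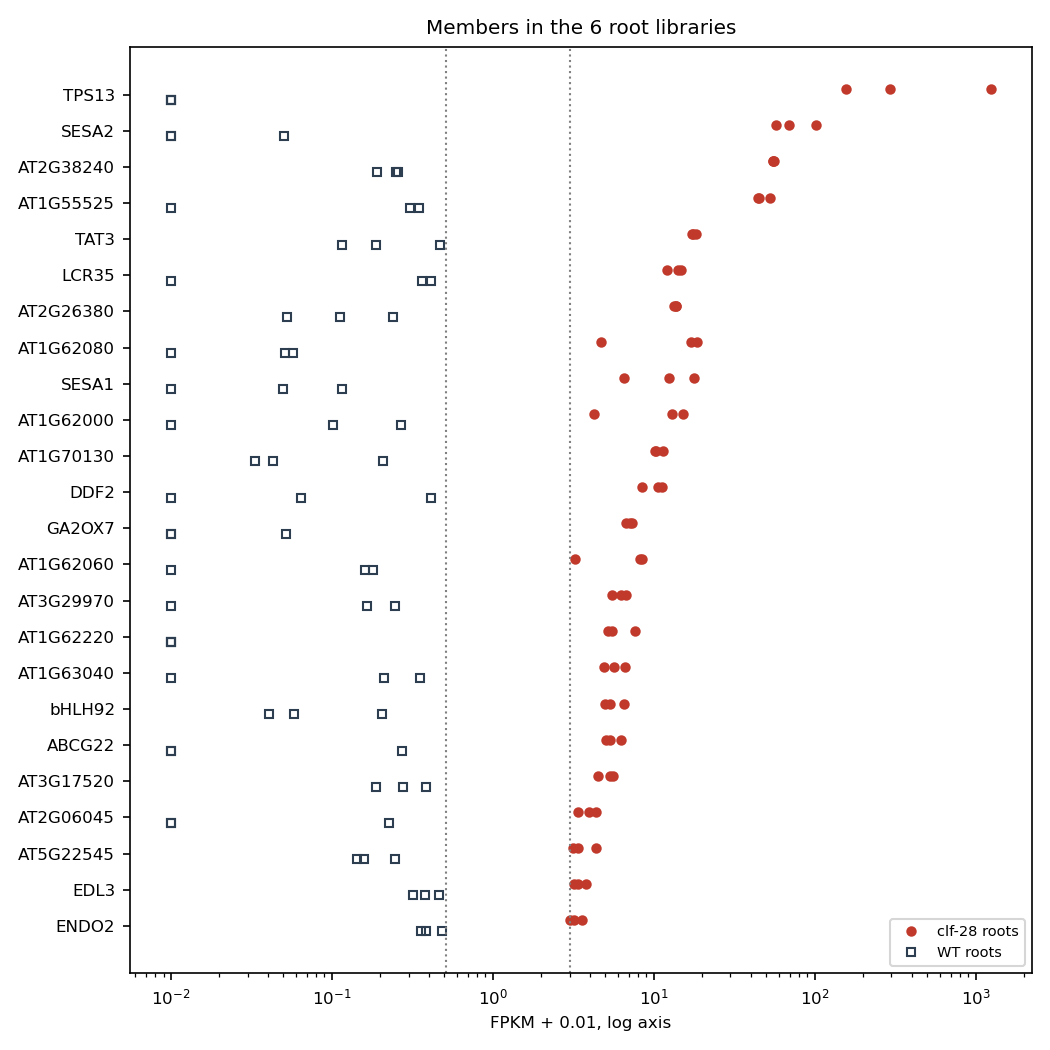
FPKM + 0.01 (log axis) of each of the 24 genes in the 3 clf-28 root libraries (filled circles, drawn slightly higher in each row) and the 3 WT root libraries (open squares), ordered by the clf-28 mean. The dotted lines are the thresholds of 0.5 and 3 FPKM that chose the genes, so the gap between the genotypes is set by the rule; the spread within clf-28 is widest for TPS13 and for the silique-abundant genes SESA1, AT1G62000, AT1G62060 and AT1G62080.

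The silique-abundant group held SESA1 and SESA2, which encode 2S albumins, the small storage proteins of the embryo. They lie next to each other on chromosome 4 on the same strand, 1309 bases apart, with transcripts 86.0% identical, so reads could be shared between them. Their promoters are shown because they are the members with most copies of CATGCA, the core of the RY element that B3-type seed regulators bind. The windows run 5′ to 3′ from 250 bases before to 50 bases after the annotated start in RefSeq TAIR10.1, on the plus strand, at chr4:13607079-13607378 for SESA1 and chr4:13609091-13609390 for SESA2. Capitals mark every match, on either strand, to CATGCA as above and to ACGTG, the core of abscisic acid response elements. They also mark the G-box CACGTG, which contains that core, and the telo-box motif AAACCCTA.
SESA1: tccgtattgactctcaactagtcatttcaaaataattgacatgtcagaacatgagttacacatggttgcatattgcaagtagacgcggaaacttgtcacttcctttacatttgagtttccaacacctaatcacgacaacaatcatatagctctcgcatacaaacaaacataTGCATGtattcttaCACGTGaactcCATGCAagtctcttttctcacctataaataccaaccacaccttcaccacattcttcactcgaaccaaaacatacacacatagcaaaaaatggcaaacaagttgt
SESA2: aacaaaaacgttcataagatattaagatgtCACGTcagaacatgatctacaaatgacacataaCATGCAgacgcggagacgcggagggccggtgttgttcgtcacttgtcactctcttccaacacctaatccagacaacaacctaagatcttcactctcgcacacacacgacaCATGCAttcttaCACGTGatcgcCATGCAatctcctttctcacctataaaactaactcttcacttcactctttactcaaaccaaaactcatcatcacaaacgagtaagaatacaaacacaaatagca

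SESA2 had 57.4, 102 and 69.2 FPKM in clf-28 roots, against 0, 0.0408 and 0 FPKM in WT roots. SESA1 had 6.48, 17.7 and 12.5 FPKM in clf-28 roots, against 0, 0.0398 and 0.106 FPKM in WT roots. In both genes clf-28 replicate 1 was the lowest and replicate 2 the highest. The next gene along, SESA3, also a 2S albumin, was not a member because 1 WT root library held 1.16 FPKM. SESA3 stood at 24.6, 80.7 and 54.0 FPKM in clf-28 roots, against 0, 0 and 1.16 FPKM in WT roots.

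A family of 4 further members showed a similar spread. AT1G62000, AT1G62060, AT1G62080 and AT1G62220 are annotated as uncharacterized proteins, lie within one stretch of chromosome 1 and share 89.8% to 95.1% of their transcript bases pairwise, so their reads may have been split among them. AT1G62080 had 4.73, 17.1 and 18.5 FPKM in clf-28 roots, against 0, 0.0472 and 0.0411 FPKM in WT roots. AT1G62000 had 4.22, 12.9 and 15.2 FPKM in clf-28 roots, against 0.261, 0.0919 and 0 FPKM in WT roots. AT1G62060 had 3.24, 8.5 and 8.21 FPKM in clf-28 roots, against 0, 0.170 and 0.150 FPKM in WT roots. In these 3 genes clf-28 replicate 1 was again the lowest. AT1G62220, listed at 0 in all 3 WT root libraries, had 5.21, 5.49 and 7.62 FPKM in clf-28 roots.

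Another pair of genes was of the kind that is high in siliques. AT3G17520 encodes a late embryogenesis abundant (LEA) protein, a family that accumulates as seeds dry. It had 5.31, 4.51 and 5.62 FPKM in clf-28 roots, against 0.373, 0.179 and 0.269 FPKM in WT roots. LCR35 encodes a low-molecular-weight cysteine-rich peptide. It had 14.8, 12.1 and 14.2 FPKM in clf-28 roots, against 0, 0.405 and 0.351 FPKM in WT roots. Unlike in the 2S albumin genes, clf-28 replicate 1 was not the lowest library for either.

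Among the enzymes, AT2G38240 had the tightest values. It encodes a 2-oxoglutarate and Fe(II)-dependent oxygenase and had 55.8, 55.2 and 55.4 FPKM in clf-28 roots, against 0.246, 0.242 and 0.182 FPKM in WT roots. Its table locus is shared with PDX1.1 on the other strand. TAT3, a tyrosine aminotransferase known to be induced by wounding and jasmonate, had 17.5, 17.3 and 18.3 FPKM in clf-28 roots, against 0.459, 0.178 and 0.106 FPKM in WT roots. GA2OX7 encodes a gibberellin 2-oxidase, which inactivates gibberellin precursors, and had 7.15, 7.35 and 6.75 FPKM in clf-28 roots, against 0, 0.0419 and 0 FPKM in WT roots. The clf-28 values of these 3 enzymes varied by 0.577% to 4.33% (coefficient of variation over 3 libraries).

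TPS13 and ENDO2 need more caution. TPS13 encodes a sesquiterpene synthase, and its member line read 1247, 156 and 295 FPKM in clf-28 roots, against 0, 0 and 0 FPKM in WT roots. The coefficient of variation was 105%, and the line was listed at 0 in all 18 libraries of the other tissues. A second table line of the same gene had 25.3, 24 and 24.1 FPKM in clf-28 roots, against 3.79, 2.00 and 2.86 FPKM in WT roots, so the gene as a whole was not silent in WT roots. ENDO2, an S1-type nuclease, was the member nearest to both thresholds, with 3.60, 3.02 and 3.21 FPKM in clf-28 roots, against 0.346, 0.473 and 0.373 FPKM in WT roots. Its table locus is shared with AT1G68300, which overlaps it on the other strand.

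Of the regulators, DDF2 belongs to the DREB group of AP2/ERF transcription factors and had 8.43, 11.3 and 10.7 FPKM in clf-28 roots, against 0, 0.0546 and 0.406 FPKM in WT roots. Its neighbour AT1G63040, 2910 bases away on the other strand and annotated as a transcribed pseudogene, had 4.87, 5.64 and 6.65 FPKM in clf-28 roots, against 0, 0.202 and 0.342 FPKM in WT roots. The transcription factor gene bHLH92 had 6.52, 5.35 and 5.00 FPKM in clf-28 roots, against 0.194, 0.0310 and 0.0483 FPKM in WT roots. EDL3, an F-box protein that acts in abscisic acid signalling, had 3.21, 3.79 and 3.37 FPKM in clf-28 roots, against 0.372, 0.310 and 0.455 FPKM in WT roots. The table placed EDL3 in a merged locus with 75 other genes, so its reads may be less cleanly assigned.

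The bHLH92 promoter is shown because it held 7 matches to ACGTG over both strands, more than any other member. CACGTG reads the same on both strands and so holds 2 such matches, and it occurs 2 times in this window. The GA2OX7 promoter is shown beside it as that of a gene under 0.5 FPKM in every WT library, with 1 match to ACGTG, and that of AT5G22545 as the third member with CATGCA. The bHLH92 window is chr5:17534747-17535046 on the minus strand, the GA2OX7 window chr1:18889223-18889522 on the plus strand and the AT5G22545 window chr5:7482909-7483208 on the plus strand (RefSeq TAIR10.1, capitals as above).
bHLH92: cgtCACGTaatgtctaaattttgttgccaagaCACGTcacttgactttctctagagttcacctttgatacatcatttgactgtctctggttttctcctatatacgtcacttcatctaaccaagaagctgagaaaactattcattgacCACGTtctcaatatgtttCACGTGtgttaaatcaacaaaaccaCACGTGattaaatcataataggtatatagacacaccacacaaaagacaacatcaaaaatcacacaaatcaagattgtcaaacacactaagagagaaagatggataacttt
GA2OX7: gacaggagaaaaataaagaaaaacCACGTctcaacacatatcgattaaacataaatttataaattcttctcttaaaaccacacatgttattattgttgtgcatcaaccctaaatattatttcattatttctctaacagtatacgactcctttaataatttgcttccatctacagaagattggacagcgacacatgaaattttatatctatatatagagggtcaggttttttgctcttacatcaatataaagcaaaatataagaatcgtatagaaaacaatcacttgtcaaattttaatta
AT5G22545: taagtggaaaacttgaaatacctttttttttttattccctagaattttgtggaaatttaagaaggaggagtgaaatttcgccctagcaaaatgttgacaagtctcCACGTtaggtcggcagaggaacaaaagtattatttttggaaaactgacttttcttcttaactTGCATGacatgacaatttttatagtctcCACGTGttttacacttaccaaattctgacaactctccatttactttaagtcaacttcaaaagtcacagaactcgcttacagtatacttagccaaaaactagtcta

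ACGTG was in 10 of the 24 member promoters and in 24.6% of 37879 promoter windows of the same length over the genome. CACGTG was in 5 of 24 members and 6.46% of all windows. CATGCA was in 3 of 24 members, namely SESA1, SESA2 and AT5G22545, and in 10.4% of all windows. AAACCCTA was in 1 of 24, AT1G63040, and in 6.17% of all windows. These are matches of letters and say nothing of binding.

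A leucine-rich repeat protein, a receptor kinase and a transporter made up a further group. AT2G26380, a leucine-rich repeat protein, had 13.8, 13.8 and 13.4 FPKM in clf-28 roots, against 0.102, 0.0423 and 0.231 FPKM in WT roots. AT1G70130, a lectin-type receptor kinase, had 10.2, 11.4 and 10.3 FPKM in clf-28 roots, against 0.0329, 0.0234 and 0.197 FPKM in WT roots. The member line of ABCG22, an ABC transporter known for its part in water loss from leaves, had 5.07, 6.24 and 5.32 FPKM in clf-28 roots, against 0, 0 and 0.263 FPKM in WT roots. A second line of ABCG22 averaged 19.9 ± 0.563 FPKM in clf-28 roots and 1.16 ± 0.262 FPKM in WT roots (SD, n = 3 each), so this gene too was not silent as a whole.

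The remaining transcripts were AT1G55525, AT3G29970, AT2G06045 and AT5G22545. The non-coding RNA AT1G55525, on chromosome 1 from 20728329 to 20728745 (TAIR10, 2 exons), had 52.6, 45.2 and 44.3 FPKM in clf-28 roots, against 0, 0.340 and 0.296 FPKM in WT roots. Its neighbours on either side, TBP2 and AT1G55530, lay between 21.4 and 35.2 FPKM in clf-28 roots and between 14.9 and 38.5 FPKM in WT roots. AT3G29970, a B12D protein, had 6.70, 6.24 and 5.46 FPKM in clf-28 roots, against 0, 0.156 and 0.238 FPKM in WT roots. AT5G22545, annotated as an uncharacterized protein, had 4.36, 3.12 and 3.36 FPKM in clf-28 roots, against 0.134, 0.149 and 0.238 FPKM in WT roots. The pseudogene AT2G06045 had 3.36, 3.93 and 4.34 FPKM in clf-28 roots, against 0, 0 and 0.217 FPKM in WT roots. It abuts the 3′ end of OPR3, a jasmonate synthesis gene on the other strand, which had 125, 127 and 126 FPKM in clf-28 roots, against 27.4, 21.2 and 24 FPKM in WT roots. The strand setting used for counting is not given in the sources used here, so the part of OPR3 reads in the AT2G06045 value was not tested.

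Near the thresholds, LBD11 missed the rule with a WT root maximum of 0.501 FPKM and AT1G32970 with 0.529 FPKM, while TAT3 and ENDO2 passed with 0.459 and 0.473 FPKM. AT2G15780 and the DREB-type gene CBF4 missed it with clf-28 root minima of 2.82 and 2.77 FPKM, and AT5G22545 and ENDO2 passed with 3.12 and 3.02 FPKM. A WT limit of 0.25 FPKM kept 14 genes, as did a clf-28 limit of 5 FPKM. Without WT roots replicate 1 the rule found 48 genes and without WT roots replicate 3 it found 45, each including all 24, whereas leaving out any of the other 4 root libraries gave 25 to 28.

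Among the WT organs outside roots, these 24 genes most often had their highest mean in siliques. The WT mean was highest in siliques and at 1 FPKM or more for 13 of the 24 genes, in inflorescences for AT2G38240 and ENDO2, and in shoots for TAT3. The share of all lines in the silique class was not computed, so the count is not read as a trait of the members. Some were near ties, such as EDL3, with WT means of 1.61 FPKM in siliques, 1.23 FPKM in inflorescences and 1.14 FPKM in shoots. The member line of ABCG22 had WT means of 6.20 FPKM in siliques and 5.36 FPKM in shoots. Its second line was no tie, with 51.0, 34.3 and 32.5 FPKM in WT siliques, against 21.5, 24.6 and 21.8 FPKM in WT shoots. Another 5 genes, TPS13, AT1G55525, AT2G26380, GA2OX7 and AT3G29970, stayed under 0.5 FPKM in every WT library of every organ by their member lines. For TPS13 this did not hold for the second line, which was above that level in WT roots as given above. The other 3, bHLH92, AT2G06045 and AT5G22545, did not reach a WT mean of 1 FPKM in any organ.

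The silique class rested in part on WT siliques replicate 1, in which 16 seed storage and oil body genes summed to 53813 FPKM, against 33.8 and 37.6 FPKM in WT siliques replicates 2 and 3. SESA1 had 3150, 1.39 and 1.33 FPKM in WT siliques, SESA2 had 6684, 0.709 and 0.902 FPKM, and AT3G17520 had 104, 0.199 and 0.445 FPKM. By the member lines, 7 of the 13 remained in the class without that library, namely LCR35, AT1G62060, AT1G62080, AT1G62000, DDF2, EDL3 and SESA1. LCR35 was high in each WT silique library, with 313, 562 and 721 FPKM. AT1G62060 was also above 100 FPKM in each, with 2201, 192 and 231 FPKM.

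Tests between WT organs did not use the root libraries. They came from a limma model on log2(FPKM + 1) of 16 libraries, with Benjamini-Hochberg adjusted p under 0.05 over 23790 lines, and all log2 differences below are on that scale, which understates the change of weakly expressed genes. Both organ comparisons share the WT shoot libraries. In WT siliques minus WT shoots 9 of 24 members differed, against 49.9% of all lines. TPS13, AT1G55525, AT2G26380, GA2OX7, AT3G29970, bHLH92 and AT5G22545 passed the filter for testing only through the clf-28 root values that chose them. Their member lines were under 1 FPKM in every WT library and could hardly be called. The share of members called is thus partly set by the rule, and nothing is read from it beside the background. Higher were 8, against 29.2% of all lines, and lower was 1, against 20.6%. LCR35 (8.17, SE 0.38, adjusted p = 1.66e-09), AT1G62060 (8.54), AT1G62080 (6.89) and AT1G62000 (5.86) were higher in WT siliques. AT1G70130 (1.36), ENDO2 (1.48), AT2G38240 (1.00) and AT1G63040 (0.51) were higher too, and TAT3 (-1.47) was lower. Quantile normalization ended the calls of AT2G38240 (0.50) and AT1G63040 (-0.036), and with the libraries as labelled AT1G62000 and AT1G62080 lost theirs. In WT inflorescences minus WT shoots 4 of 24 differed, against 51.9% of all lines, with 2 higher, against 32.2%, and 2 lower, against 19.7%. AT2G38240 (3.51, SE 0.26, adjusted p = 1.44e-07) and ENDO2 (2.12) were higher in WT inflorescences, and ABCG22 (-1.11) and AT1G63040 (-0.57) were lower.

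**Figure D2:**
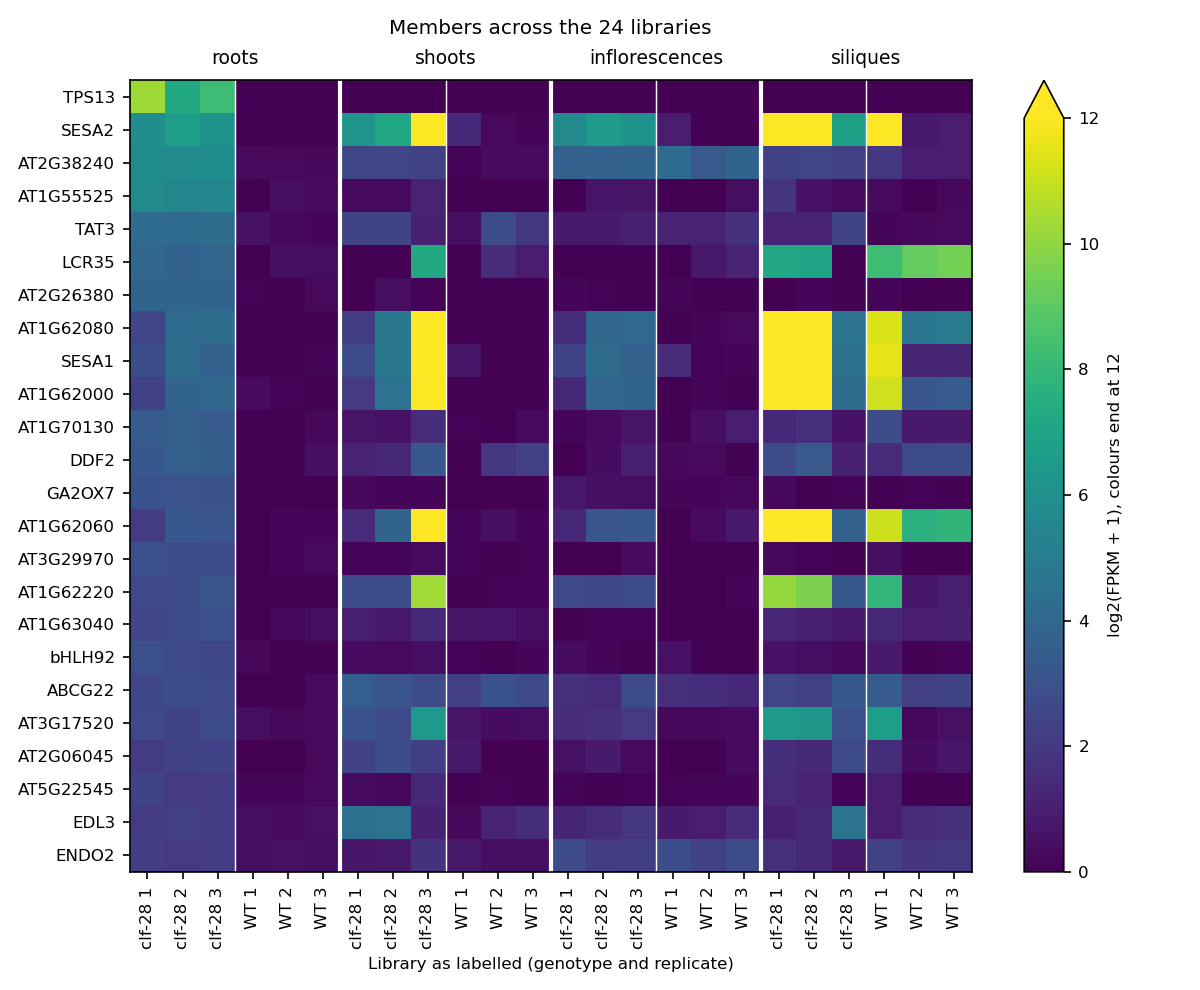
log2(FPKM + 1) of the 24 genes (rows, ordered by clf-28 root mean) in the 24 libraries (columns, by tissue, clf-28 left of WT, replicates as labelled), with colours ending at 12. The 2S albumin genes and AT1G62000, AT1G62060 and AT1G62080 are bright in clf-28 siliques 1 and 2, in WT siliques 1 and in the library labelled clf-28 shoots 3, and at an intermediate level in the other clf-28 libraries; TPS13, AT1G55525, AT2G26380, GA2OX7 and AT3G29970 stand out in clf-28 roots.

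The clf-28 root level was not always below the WT organ of highest expression. For the member lines of 14 of the 24 genes all 3 clf-28 root values exceeded every WT library of every organ, a pattern that 5.83% of all lines naming 1 gene showed. The rule used the clf-28 root values, so nothing is read from that count. For the other 10, the clf-28 root mean lay below the highest WT organ mean. AT1G55525 averaged 47.4 ± 4.54 FPKM in clf-28 roots, and its highest WT organ mean, in WT roots, was 0.212 ± 0.185 FPKM (SD, n = 3 each). AT2G38240 averaged 55.4 ± 0.320 FPKM in clf-28 roots, against 13.3 ± 4.11 FPKM in WT inflorescences. TAT3 averaged 17.7 ± 0.542 FPKM in clf-28 roots, against 2.99 ± 2.69 FPKM in WT shoots. LCR35 averaged 13.7 ± 1.42 FPKM in clf-28 roots, against 532 ± 206 FPKM in WT siliques.

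The silique-abundant transcripts stood at a very small share of their silique level in clf-28 roots. Set against the mean of clf-28 siliques replicates 1 and 2, the clf-28 root mean was 0.169% for SESA2, 0.0863% for SESA1, 0.0895% for AT1G62080, 0.0851% for AT1G62000, 0.0802% for AT1G62060 and 0.647% for AT1G62220. It was 5.96% for AT3G17520 and 10.3% for LCR35. For each of the other 16 genes the clf-28 root mean of the member line was above that of clf-28 siliques. The second line of ABCG22 went the other way, with a mean of 19.9 FPKM in clf-28 roots against 40.8 and 34.9 FPKM in clf-28 siliques replicates 1 and 2. SESA2, for example, had 44691 and 45233 FPKM in clf-28 siliques replicates 1 and 2, and AT1G62080 had 13998 and 16040 FPKM.

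Low levels of the same transcripts except LCR35 were present in clf-28 shoots and inflorescences too, not in roots alone. LCR35 was listed at 0 in clf-28 shoots replicates 1 and 2 and in all 3 clf-28 inflorescence libraries. SESA2 had 76.5 and 145 FPKM in clf-28 shoots replicates 1 and 2, against 1.5, 0.244 and 0.126 FPKM in WT shoots. It had 49.7, 97.8 and 67.9 FPKM in clf-28 inflorescences, against 0.960, 0.0398 and 0 FPKM in WT inflorescences. AT1G62220 kept a steady share of its silique level, from 0.543% to 0.807% over the 8 clf-28 root, shoot and inflorescence libraries. The other 5 genes under 1% of their clf-28 silique level differed by library, and in each of the 3 organs clf-28 replicate 1 had the lowest share. AT1G62080, for example, stood at 0.0315%, 0.114% and 0.123% in clf-28 roots, at 0.0233% and 0.182% in clf-28 shoots, and at 0.0129%, 0.0970% and 0.107% in clf-28 inflorescences.

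The same shares were taken for the 13 genes at 1000 FPKM or more in both clf-28 siliques replicates 1 and 2 and under 0.5 FPKM in all 3 WT root libraries, of which 5 were members. This choice caps the WT root shares, and the member rule set the clf-28 root values of those 5 at 3 FPKM or more, so nothing is read from the difference between clf-28 and WT roots. Their median share of the clf-28 silique level was 0.0386%, 0.115% and 0.106% in clf-28 roots. It was 0.0258% and 0.182% in clf-28 shoots replicates 1 and 2, and 0.0184%, 0.121% and 0.103% in clf-28 inflorescences. The WT root, shoot and inflorescence libraries had medians from 0% to 0.00286%. One of the 13, AT2G01667, stood apart, with at most 0.00179% in clf-28 roots. Whether reads from silique or seed RNA entered the clf-28 libraries was not tested.

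**Figure D3:**
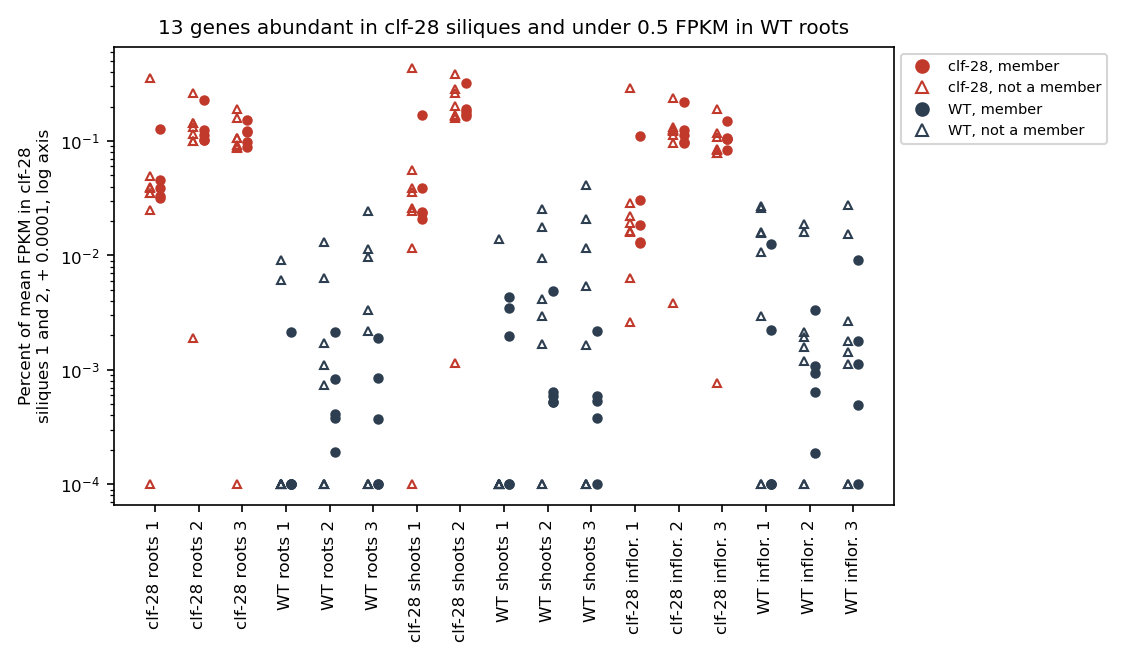
FPKM of 13 silique-abundant genes as a percent of their mean in clf-28 siliques 1 and 2, plus 0.0001 (log axis), in each root, shoot and inflorescence library (clf-28 left of WT, without the library labelled clf-28 shoots 3). Circles are the 5 member genes and triangles the 8 others; in each organ most clf-28 points of replicate 1 lie below those of the other replicates, and most WT points lie lower still, which in roots the choice of genes partly fixes.

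Markers of seed tissue moved unevenly with these values in roots. The 16 seed storage and oil body genes summed to 253, 552 and 377 FPKM in clf-28 roots, against 5.34, 2.63 and 9.89 FPKM in WT roots, and 11 of them were at 1 FPKM or more in all 3 clf-28 root libraries. The 8 seed maturation regulators summed to 14.0 to 15.4 FPKM in clf-28 roots and 13.4 to 19.2 FPKM in WT roots. WRI1, AGL15 and ABI5 made up most of these sums, and the other 5 stayed under 0.5 FPKM. FUS3 had 0.200, 0.345 and 0.213 FPKM in clf-28 roots, against 0, 0.0590 and 0.0196 FPKM in WT roots. For bZIP67 the values were 0.0990, 0.231 and 0.126 FPKM, against 0, 0 and 0.0111 FPKM. ABI3 went the other way, with 0.00741, 0.0873 and 0 FPKM, against 0.0778, 0.173 and 0.114 FPKM. LEC2 was listed at 0 in all 6 root libraries. The 10 endosperm genes summed to 1.08 to 1.34 FPKM in clf-28 roots and 0.662 to 1.63 FPKM in WT roots. In clf-28 siliques replicates 1 and 2 these genes summed to 42.4 and 37.5 FPKM. A share of that as small as the 2S albumin genes had would lie near 0, so the root sums cannot show whether endosperm genes followed them. The 7 seed coat genes summed to 6.5 to 7.13 FPKM in clf-28 roots and 3.05 to 6.07 FPKM in WT roots, with TT2 listed at 0 in all 6. The same limit holds for TT2, at 11.1 and 8.59 FPKM in those clf-28 siliques, and for LEC2, at 3.17 and 3.10 FPKM. It holds for ABI3 too, at 49.3 and 49.6 FPKM there. LCR35 was listed at 0 in clf-28 shoots replicates 1 and 2 and in all 3 clf-28 inflorescence libraries, so it did not follow the 2S albumin genes there.

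The spread between clf-28 root libraries was widest, TPS13 apart, for the 6 genes under 1% of their clf-28 silique level. Their coefficient of variation over the 3 clf-28 roots was 21.5% to 56.4%. It was 0.577% to 18.2% for the 17 other genes without TPS13.

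Outside roots, clf-28 and WT could be compared on values the rule did not use. For the 6 genes under 1% of their clf-28 silique level this may not make the comparison independent of the rule. Whether silique reads entered the clf-28 libraries was not tested, and such reads would tie their clf-28 root values to their silique level. In clf-28 shoots EDL3, AT2G38240 and AT2G06045 rose. In clf-28 siliques 10 genes rose, among them both 2S albumin genes and the family of AT1G62000, and LCR35 fell, and in clf-28 inflorescences no member passed the test. Across the 24 genes the median log2 difference was 0.59 in shoots, 0.29 in inflorescences and 0.66 in siliques, against 0.01, 0 and -0.05 over all lines tested. The same WT shoot libraries enter the shoot comparison here and the WT organ comparisons above. The genes named above that passed the filter only through clf-28 roots are part of these medians and of the counts below.

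In clf-28 shoots 3 of 24 members were called higher, against 5.41% of all lines, and 0 were called lower, against 3.09% (8.51% in either direction). EDL3 had 19.9 and 21.5 FPKM in clf-28 shoots replicates 1 and 2, against 0.194, 1.3 and 1.93 FPKM in WT shoots. The groups did not overlap, and the log2 difference was 3.43 (SE 0.35, limma adjusted p = 6.9e-05). AT2G38240 had 4.71 and 4.70 FPKM in clf-28 shoots, against 0.0793, 0.312 and 0.290 FPKM in WT shoots (2.22, SE 0.29, limma adjusted p = 0.000441). AT2G06045 had 3.99 and 6.40 FPKM in clf-28 shoots, against 0.792, 0 and 0 FPKM in WT shoots (2.32, SE 0.34, limma adjusted p = 0.00105). The difference was positive for 21 of the 24 genes. ABCG22 was not called by its member line (0.73, limma adjusted p = 0.315). Its second line had 57.2 and 55.8 FPKM in clf-28 shoots replicates 1 and 2, against 21.5, 24.6 and 21.8 FPKM in WT shoots. With the library labelled clf-28 shoots replicate 3, which had 1.09 FPKM of EDL3, the EDL3 call was lost (2.31, adjusted p = 0.206) and the calls of AT2G38240 and AT2G06045 were kept.

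The 2S albumin genes did not pass the test in shoots or inflorescences. SESA2 had log2 differences of 6.13 (SE 2.55, adjusted p = 0.18) in shoots and 5.79 (SE 2.28, adjusted p = 0.251) in inflorescences. The model shares 1 spread over organs, and the gap between WT siliques replicate 1 and the other WT siliques enters that spread. With the libraries of 1 organ alone, 10 members were called higher in shoots, against 10.1% of all lines, SESA1, SESA2 and AT1G62220 among them. AT1G55525, AT5G22545 and GA2OX7 were among them too. These passed the filter for testing only through clf-28 roots and do not count as support. In inflorescences that fit called 3 higher, SESA2, AT1G62220 and AT3G17520, against 0.135% of all lines. Without the WT replicate 1 libraries of every organ, 9 members were called higher in shoots, against 12.4% of all lines, and 6 in inflorescences, against 10.3%. The 6 included GA2OX7, to which the same limit applies. LCR35 was called lower in both organs in that fit.

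In clf-28 inflorescences 0 of 24 members were called in either direction by limma, against 0.929% of all lines called higher and 1.33% called lower, and 3 had an unadjusted p under 0.05. GA2OX7 had 0.790, 0.409 and 0.366 FPKM in clf-28 inflorescences, against 0.163, 0.106 and 0.182 FPKM in WT inflorescences (0.39, adjusted p = 0.0594). It passed the filter for testing only through the clf-28 root values that chose it, so this value does not count as support. AT2G38240 had 11.9, 12.9 and 13.1 FPKM in clf-28 inflorescences, against 17.4, 9.16 and 13.5 FPKM in WT inflorescences, and the groups overlapped.

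In clf-28 siliques 10 of 24 members were called higher, against 11.1% of all lines, and 1 lower, against 14.3%. SESA2 (10.65, SE 2.55, limma adjusted p = 0.00882), SESA1 (9.09), AT1G62000 (7.71), AT1G62080 (6.92), AT1G62220 (6.66) and AT1G62060 (4.16) rose. In all 6 genes both clf-28 silique libraries lay above the 3 WT libraries. AT3G17520 was called too (3.94, adjusted p = 0.0493), although both clf-28 libraries, with 91.8 and 80.6 FPKM, lay below WT siliques replicate 1 with 104 FPKM, and the call was lost with a pseudocount of 5 FPKM. AT2G38240 had 4.06 and 4.73 FPKM in clf-28 siliques, against 2.89, 0.907 and 0.968 FPKM in WT siliques (1.14, adjusted p = 0.0118). AT5G22545 (0.97) and AT1G55525 (0.97) were called as well, at levels up to 2.45 FPKM. Both reached 1 FPKM in at least 3 libraries, the filter for testing, only through the clf-28 root values that chose them. Neither call therefore counts as support. AT1G55525 had 2.45 and 0.504 FPKM in clf-28 siliques, against 0.290, 0 and 0.209 FPKM in WT siliques, and lost its call without the filter. LCR35 fell, with 139 and 126 FPKM in clf-28 siliques, against 313, 562 and 721 FPKM in WT siliques (-1.91, SE 0.43, adjusted p = 0.00604). With the library labelled clf-28 siliques replicate 3 included, only AT2G38240 was called higher, against 3.4% of all lines. With the silique libraries alone only TAT3 was called higher, against 1.71% of all lines. Without clf-28 siliques replicate 1 only AT1G62080 was, against 5.23%, and without clf-28 siliques replicate 2 there were 6, against 7.16%. Markers of seed tissues and of pollen also differed in clf-28 siliques, in both directions. All 13 seed storage and oil body genes tested and 13 of 14 LEA genes were called higher, lists that hold SESA1, SESA2 and AT3G17520. The maturation regulators called were higher too, and most endosperm, seed coat and pollen genes were lower. Their part in the result was not tested. Of 10 endosperm genes 8 were called lower and 1 higher, of 7 seed coat genes 4 lower and 1 higher, of 7 pollen genes 6 lower and 0 higher, and of 8 seed maturation regulators 5 higher and 0 lower.

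**Figure D4:**
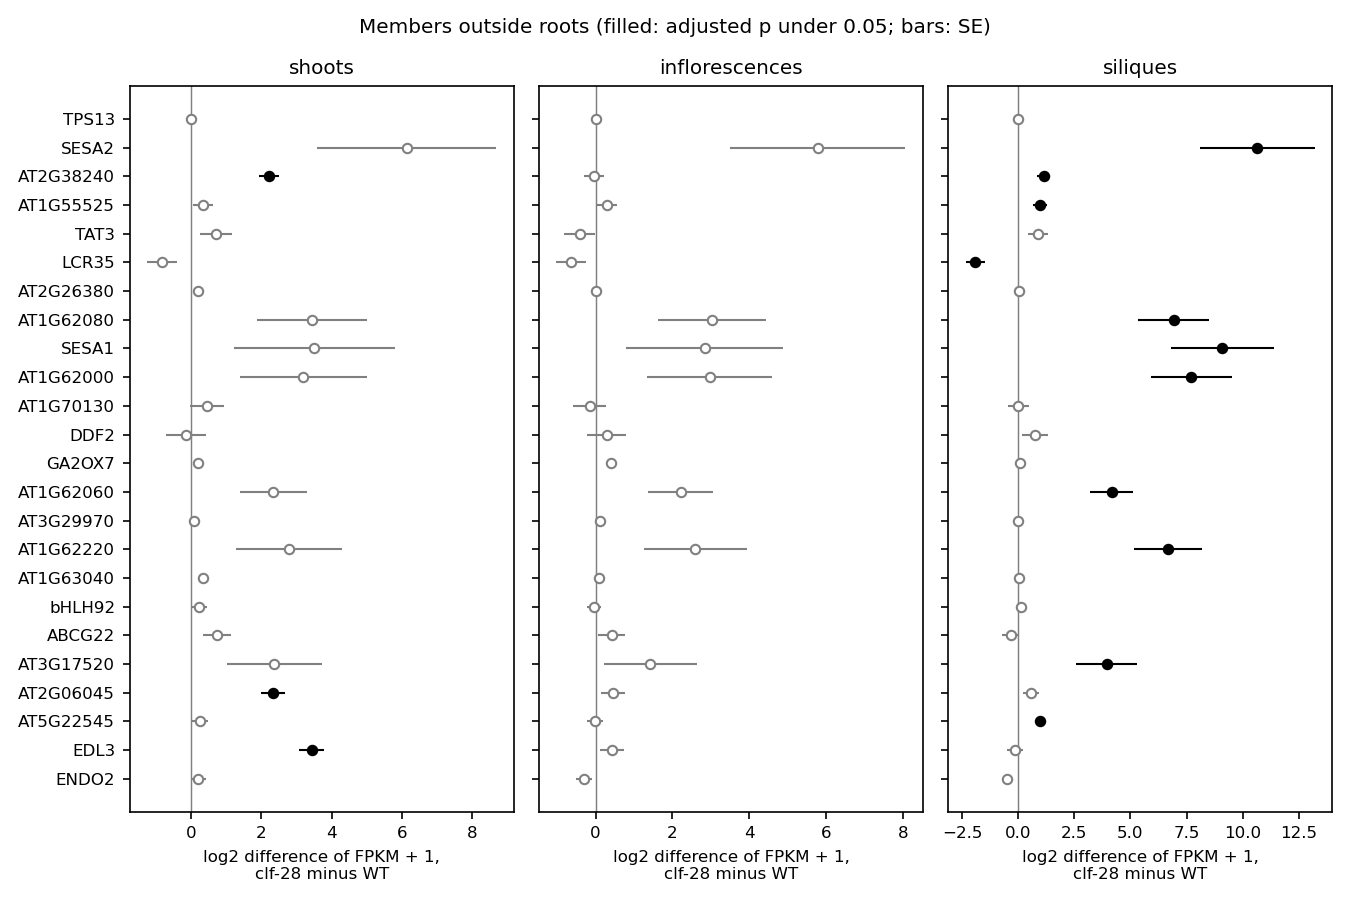
log2 difference of FPKM + 1, clf-28 minus WT, of the 24 genes in shoots, inflorescences and siliques (points, bars are standard errors of the limma model of 16 libraries, filled where the adjusted p was under 0.05; the 3 axes differ in range). EDL3, AT2G06045 and AT2G38240 are filled in shoots, none in inflorescences, and 11 in siliques, of which LCR35 alone lies below 0.

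Taking away the 8 genes at under 11% of their clf-28 silique level left 16. Their median log2 differences were 0.30 in shoots, 0.05 in inflorescences and 0.06 in siliques, with 3, 0 and 3 called higher, against 5.41%, 0.929% and 11.1% of all lines. Of those called in siliques, AT5G22545 and AT1G55525 passed the filter for testing only through clf-28 roots. GA2OX7, AT2G26380, AT3G29970 and bHLH92 stayed under 1 FPKM in every clf-28 shoot, inflorescence and silique library. GA2OX7, at 7.08 ± 0.307 FPKM in clf-28 roots, averaged 0.522 ± 0.234 FPKM in clf-28 inflorescences, its highest level outside clf-28 roots. AT2G26380, at 13.7 ± 0.221 FPKM in clf-28 roots, did not exceed 0.359 FPKM in any clf-28 library of another organ (SD, n = 3).

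The clf-28 effect was larger in shoots than in inflorescences for 3 of 24 members, against 3.06% of all lines higher in that interaction test, and smaller for 0, against 0.689% (3.75% in either direction). The differences of effects were 3.00 for EDL3 (SE 0.47, adjusted p = 0.00363), 2.26 for AT2G38240 (SE 0.39, adjusted p = 0.00587) and 1.86 for AT2G06045 (SE 0.46, adjusted p = 0.0406). The AT2G06045 call was kept in 2 of 11 fits that left out 1 library, those without WT shoots replicate 1 or WT inflorescences replicate 1, and those of the other two genes in all 11. OPR3, beside AT2G06045, had log2 differences of 3.04 in shoots (limma adjusted p = 2.23e-06) and 0.20 in inflorescences (adjusted p = 0.70). With the libraries as labelled only AT2G38240 kept the call among the members. For AT2G38240 the WT inflorescence level was already above 9 FPKM in each library.

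Lists of known pathway genes were read beside these members. The abscisic acid and dehydration list (10 genes) and the wound and jasmonate list (13 genes) held 0 members. These short lists leave out TAT3 and EDL3, described above with jasmonate and with abscisic acid. The count of 0 is therefore not read as a trait of the members. Of 8 tested genes of abscisic acid and dehydration response, such as RD29B and COR15A, 8 were called higher in clf-28 shoots, 0 in clf-28 inflorescences and 3 in clf-28 siliques, with 1 lower. Of 11 wound and jasmonate genes, such as LOX3 and JAZ10, 8 were called higher in clf-28 shoots and 0 in clf-28 inflorescences and siliques. Of 13 seed storage and oil body genes tested, 13 were called higher in clf-28 siliques and 0 in the other 2 organs, where the median differences were 1.75 (shoots) and 1.56 (inflorescences). Of 14 LEA genes, 5, 0 and 13 were called higher in clf-28 shoots, inflorescences and siliques. Of all lines, 5.41% were called higher in clf-28 shoots, 0.929% in inflorescences and 11.1% in siliques. In roots, where nothing was tested, the wound and jasmonate list summed to 1333 to 1362 FPKM in clf-28 and 152 to 310 FPKM in WT, and the dehydration list to 294 to 304 FPKM in clf-28 and 18.2 to 31.3 FPKM in WT.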

How the data were processed

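RNA from whole roots, shoots, inflorescences and siliques was sequenced with a strand-specific single-end TruSeq protocol, per the labels' protocols. The authors deposited FPKM per gene line and library with a status beside each value, made with TopHat, Cufflinks and Cuffdiff on TAIR10 per the submitters' processing notes; versions, library scaling and the strand setting are not given in the sources used here. An FPKM is already scaled to length and library, so read depth is unknown and no counting interval can be given; a value listed at 0 may be a failed estimate. The 48 deposited columns of confidence bounds were not used, and 61 lines with a status other than OK were left out of the tests.

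Gene symbols, classes, positions and promoters came from RefSeq TAIR10.1, in which all 24 IDs were found. Locus starts or ends of the deposited table equalled those of RefSeq to the base for 27.8% to 72.2% of genes over 25 equal stretches of the 5 chromosomes, and 100% lay on the same chromosome.

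Lines at 1 FPKM or more in at least 3 of 22 libraries (roots included, so that all 24 members passed) were tested with limma 3.58.1 (R 4.3.3, trend and robust prior) on log2(FPKM + 1), with a mean per group of 16 libraries and 10 residual degrees of freedom. Root libraries, which chose the members, and the 2 doubted libraries stayed out of the fit. Tests were two-sided, adjusted by the Benjamini-Hochberg method over 23790 lines at a threshold of 0.05, and the method was tested on simulated data. Groups of 2 libraries are assumed to vary like the others. The members and gene lists were chosen with earlier results of these data known, so no list is independent support. Members named are those in a list, the highest in clf-28 roots, the largest changes that passed the test without overlap, the highest in each WT organ, those whose member line was under 0.5 FPKM in all WT libraries, those nearest the thresholds, and transcription factors; the other members are named because every member is described.

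Replicate numbers are shared by all groups. Same-numbered WT inflorescences and WT shoots deviated together in all 3 pairs (correlations 0.271, 0.214 and 0.164). The other comparisons had a pair at or below 0.1. Differently numbered libraries were not compared and the labels state no pairing, so whether the numbers pair samples is not known.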

Additional observations from a re-analysis of the deposited data

Results flagged for a closer look

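The clf-28 effect in shoots differed from that in inflorescences, by an interaction test over all lines, for 3 of the 24 genes. EDL3 had a difference of effects of 3.00 on the log2 scale and AT2G38240 of 2.26, and both passed the threshold in all 11 fits that left out 1 library. The difference of 1.86 for AT2G06045 passed it in 2 of 11, those without WT shoots replicate 1 or without WT inflorescences replicate 1, and ranged from 1.58 to 2.15 (adjusted p up to 0.218). OPR3, on the other strand at its 3′ end, had log2 differences of 3.04 in shoots (limma adjusted p = 2.23e-06) and 0.20 in inflorescences (adjusted p = 0.70), and its part in the AT2G06045 value was not tested.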

How the results depend on the processing

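The calls rest on 2 or 3 libraries per group, and depth is unknown. Calls of AT1G55525, AT5G22545 and GA2OX7 within the counts below do not count as support. These genes passed the filter for testing only through clf-28 roots. The count of members higher in clf-28 shoots was 3. It became 5 with a pseudocount of 0.1 FPKM, 10 with the shoot libraries alone and 9 without WT replicate 1 of every organ. Leaving out 1 library at a time it stayed between 3 and 3. In inflorescences the count of 0 became 1 with the root libraries (GA2OX7), 3 with 1 organ alone, 6 without WT replicate 1 of every organ and 0 to 1 without single libraries. In siliques the count of 10 became 1 with the libraries as labelled (AT2G38240) and 1 with silique libraries alone, and 1 to 12 without single libraries. In WT inflorescences minus WT shoots the count of 4 became 7 without WT replicate 1 of every organ, and 3 to 6 without single libraries. In WT siliques minus WT shoots the count of 9 was 7 with the libraries as labelled and with quantile normalization, and 8 to 13 without single libraries. The interaction count of 3 became 1 with the libraries as labelled (AT2G38240), and 2 to 3 without single libraries. The rule itself found 14 genes with a WT limit of 0.25 FPKM, 14 with a clf-28 limit of 5 FPKM, and 25 to 48 without single root libraries. The 13 genes highest in WT siliques became 7 to 14 without single WT libraries, an alternative chosen after seeing the data. Apart from those built from fewer libraries, the cause of these shifts was not tested.

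With the replicate number as a block the counts were 3 in shoots, 0 in inflorescences, 9 in siliques, 5 in WT inflorescences minus WT shoots (DDF2 added, lower), 9 in WT siliques minus WT shoots and 2 for the interaction. The labels give the samples a shared number only, and whether it pairs them is not known.

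Of 481 recomputations of 30 named differences, 414 kept their direction and call, 66 kept the direction and lost the call, and 1 reversed. AT1G63040 in WT siliques minus WT shoots turned to -0.036 with quantile normalization (adjusted p = 0.811), and the cause was not tested.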
